A study of Drosophila melanogaster with 6 samples.

Results

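The vacuolar ATPase (V-ATPase) genes of the fly were described across the cell types of the adult testis. They were taken as every gene of the count matrices whose symbol begins with Vha, which gave 32 of 17612 genes. The 32 genes stand for 13 subunits of the pump and for the accessory protein Ac45 (VhaAC45). Subunits B (Vha55), C (Vha44), E (Vha26), G (Vha13) and H (VhaSFD) have 1 gene each, and the other 8 subunits share 26 genes, namely 3 for A, 3 for D, 2 for F, 5 for a, 5 for c, 2 for c″, 2 for d and 4 for e.

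The V-ATPase is a rotary proton pump of endosomes, lysosomes, secretory vesicles and some plasma membranes. Its soluble V1 sector (A, B, C, D, E, F, G and H) hydrolyses ATP, with the catalytic sites on A at the contacts with B. Hydrolysis turns the central stalk of D and F, which turns a ring of the proteolipids c and c″ in the membrane sector V0. The ring passes protons across the membrane against subunit a, while d seats the stalk on the ring, e is a small membrane protein and the peripheral stalks of E and G, held by C and H, keep the rest from turning. In animals the isoforms of subunit a are known to place the pump in different membranes, and in the fly several subunits have paralogs whose transcripts are known to be found mainly in testis.

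The data were single-cell RNA profiles (10x Genomics, 3′ end) of dissected adult Drosophila melanogaster testes. There were 3 libraries of chinmoST males, aged 3–5, 6–8 and 9–11 d, and 3 libraries of wild-type Oregon R males of the same ages, with the testes of many males pooled in each library. In the study chinmoST is a mutation of chinmo, a transcription factor gene, that lowers Chinmo in somatic cyst stem cells (CySCs) and their daughters, so that with age these cells take on female features. The lesion itself is not known here. The genotype label of the chinmoST samples names the Sod1[X-39] and e[1] alleles over the balancer TM3 with Sb[1] and Ser[1], none of which stands in the wild-type label. To enrich early germ cells and cyst cells, the cell suspensions of both genotypes were filtered against spermatids. There was 1 library per genotype and age, so the 3 ages served as the replicates of a genotype, p-values measure the spread between libraries that also differ in age, and age cannot be told apart from library.

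Per library 3273 to 6660 chinmoST cells and 3928 to 4490 wild-type cells were kept by the authors, with 24746443 to 37947359 UMIs in chinmoST and 27446763 to 41822738 in wild-type libraries. A UMI (unique molecular identifier) stands for 1 captured RNA molecule. Median UMIs per cell were lower in chinmoST libraries (1865 to 2264) than in wild-type libraries (2372.5 to 4123), and 63 of 26549 barcodes occurred in more than 1 library. The authors' names of 17 cell types were used, of which 6 germline types, 4 types of the cyst lineage and 2 epithelia are described here. The defining markers of each of these types were detected in it. The fewest were found in GSCs/spermatogonia (germline stem cells and their mitotic daughters), where 4 of 6 markers had UMIs in at least 5 libraries, and of the intermediate cyst cell markers 1 of 3 had that type among its top 3. Wild-type libraries held 4 to 9 CySCs and 4 to 18 GSCs/spermatogonia. Levels are in CPM (UMIs per 1000000 of those in a type and library) and are given for 3–5, 6–8 and 9–11 d in that order. Since 1 transcript gives 1 end, these 3′ counts need no correction for length.

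The pump was transcribed throughout the testis, but its total level and its main genes differed between lineages. Over the 6 libraries the summed CPM of the 32 genes averaged 2375 ± 658 for GSCs/spermatogonia, 4126 ± 384 for early spermatocytes, 2407 ± 113 for early spermatids and 2247 ± 98.1 for late spermatids (SD, n = 6). Among the somatic types the sum was highest in early cyst cells, the first post-mitotic daughters of CySCs, at 9276 ± 991, followed by terminal epithelial cells at 8775 ± 1219, late cyst cells at 6359 ± 540.3, intermediate cyst cells at 5803 ± 576 and CySCs at 5564 ± 2450.3. The sum in the male gonad associated epithelium was 3302 ± 319, but a single gene, CG18628, took 28.9 to 34.6% of all UMIs of that type in chinmoST and 36.8 to 45% in wild-type libraries, which lowers the CPM of every other gene there. These sums compare types that were clustered on the same counts and are a description.

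**Figure D1:**
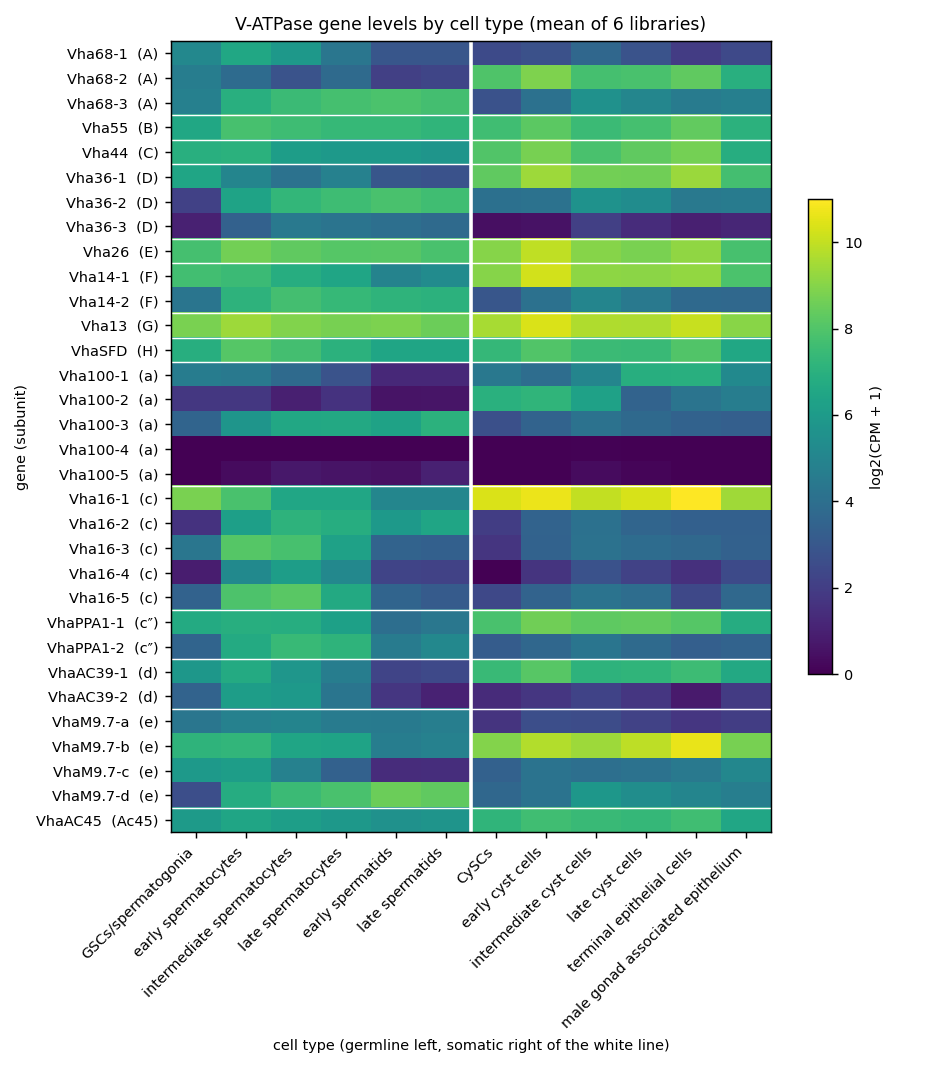
Mean CPM over the 6 libraries of each V-ATPase gene (rows, with its subunit) in 6 germline types and 6 somatic types (columns), as log2(CPM + 1) by colour. Vha13 (G) is bright in every column, Vha16-1 (c) is the brightest gene of each somatic type, and Vha68-3, Vha36-2, Vha14-2, Vha100-3 and VhaM9.7-d are brighter from early spermatocytes on than in somatic types.

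Vha13, the peripheral stalk subunit G, had the highest mean of the 32 genes in each of the 6 germline types. It measured 339.6, 501 and 490.0 CPM in chinmoST and 382, 498 and 491 CPM in wild-type early spermatids, against 699.7, 1007 and 941 CPM in chinmoST and 596, 839 and 794 CPM in wild-type intermediate cyst cells. Its means over the libraries lay between 363 ± 44.9 CPM in late spermatids and 1315 ± 292 CPM in early cyst cells, so it was well detected in every type. Vha16-1, the proteolipid c of the ring, had the highest mean in each of the 6 somatic types, at 2019 ± 720.2 CPM in terminal epithelial cells, 1638 ± 527 CPM in early cyst cells and 685 ± 212 CPM in male gonad associated epithelium. In GSCs/spermatogonia it averaged 440.0 ± 196 CPM beside 447 ± 157 CPM for Vha13, so that these means did not differ beyond their spread. The leader there differed by genotype. In chinmoST Vha13 measured 488, 297 and 254 CPM, under Vha16-1, which made up 98.5, 98.9 and 99.1% of subunit c at 529, 656 and 602 CPM. In wild-type libraries Vha13 led, at 487, 690 and 465 CPM beside 489, 414 and 140 CPM for subunit c. The wild-type libraries of 6–8 and 9–11 d held only 6 and 4 of these cells.

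Germline and cyst lineage were compared by summing the UMIs of the 6 germline types and of the 4 cyst types (CySCs, early, intermediate and late cyst cells) in each library. A gene was called different where its log2 ratio of germline over cyst lineage passed 2-fold in the same direction in all 6 libraries. This is a rule of size without a test, since the cell types were made from these counts. Of 7797 genes with at least 10 CPM in a lineage, 32.9% were higher in germline and 15.7% were higher in the cyst lineage. Of the 29 V-ATPase genes with that level, 8 (27.6%) were higher in germline and 11 (37.9%) in the cyst lineage, and 10 were neither. The median log2 ratio of germline over cyst lineage was −0.72 for the V-ATPase genes and 0.48 for all genes. The 3 genes under the minimum were VhaAC39-2, Vha100-5 and Vha100-4.

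All 8 genes higher in germline were members of subunits with several genes: Vha68-3 (A), Vha36-2 and Vha36-3 (D), Vha14-2 (F), Vha100-3 (a), Vha16-2 (c), VhaM9.7-a and VhaM9.7-d (e). Of the 11 genes higher in the cyst lineage, 9 had paralogs, namely Vha68-2, Vha36-1, Vha14-1, Vha100-1, Vha100-2, Vha16-1, VhaPPA1-1, VhaAC39-1 and VhaM9.7-b, and the other 2 were Vha44 (C) and VhaAC45. Vha55, Vha26, Vha13 and VhaSFD, each the only gene of its subunit, were in neither class. In the gene models of the dm6 annotation, genes without an intron made up 3 of the 8 germline genes (Vha100-3, Vha16-2, VhaM9.7-d), 2 of the 11 cyst genes (Vha36-1, Vha14-1) and 4 of the 10 others. With a fold of 4 in place of 2, the calls were 0 higher in germline and 5 higher in the cyst lineage. With TMM-scaled levels (a scaling on the bulk of genes), 5 genes were higher in germline and 11 in the cyst lineage.

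Subunit A, which carries the catalytic sites, had a different gene in spermatids than in cyst cells. Vha68-3 (dm6, chromosome arm 2L, 12978786 to 12981293, plus strand) measured 158, 274 and 279.7 CPM in chinmoST and 168, 258 and 255 CPM in wild-type early spermatids, against 43.7, 34.0 and 35.9 CPM in chinmoST and 66.7, 58.9 and 40.3 CPM in wild-type intermediate cyst cells. Vha68-2 (2L, 12974322 to 12978607, plus strand), which ends 179 bases upstream of Vha68-3, ran the other way, at 4.44, 3.12 and 3.67 CPM in chinmoST and 3.09, 2.61 and 2.17 CPM in wild-type early spermatids, against 176, 274 and 249 CPM in chinmoST and 121, 228 and 243 CPM in wild-type intermediate cyst cells. The spermatid and cyst cell values of each of these 2 neighbours did not overlap. Vha68-3 made up 95.7 ± 1.30% of subunit A UMIs in early spermatids, and Vha68-2 77.5 ± 9.02% in intermediate cyst cells (SD, n = 6). The third A gene, Vha68-1, was highest in early spermatocytes, at 115, 75.5 and 76.5 CPM in chinmoST and 81.4, 97.7 and 115 CPM in wild-type libraries, above intermediate spermatocytes, the next highest type, without overlap, and was at 6.62 ± 0.930 CPM in early spermatids.

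Of the central stalk, Vha36-2 and Vha14-2 were the spermatid genes of subunits D and F. Vha36-2 measured 217, 235 and 229 CPM in chinmoST and 204, 227 and 253 CPM in wild-type early spermatids, against 60.4, 28.9 and 23.3 CPM in chinmoST and 81.8, 51.1 and 40.8 CPM in wild-type intermediate cyst cells. Its paralog Vha36-1 measured 11.1, 3.82 and 5.64 CPM in chinmoST and 10.9, 4.43 and 3.68 CPM in wild-type early spermatids, against 504, 410.1 and 349 CPM in chinmoST and 441, 329 and 354 CPM in wild-type intermediate cyst cells. The shares followed, with Vha36-2 at 91.2 ± 1.25% of subunit D UMIs in early spermatids and Vha36-1 at 88.9 ± 3.90% in intermediate cyst cells. Vha36-3, on the X, stayed low, with its highest mean of 20.6 ± 11.9 CPM in intermediate spermatocytes.

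Vha14-2 measured 129.96, 118 and 109 CPM in chinmoST and 184, 159.6 and 153 CPM in wild-type early spermatids, against 30.4, 21.9 and 16.8 CPM in chinmoST and 68.2, 32.4 and 17.5 CPM in wild-type intermediate cyst cells. Vha14-1 measured 43.2, 23.3 and 28.2 CPM in chinmoST and 43.3, 23.3 and 17.2 CPM in wild-type early spermatids, against 725, 569 and 528 CPM in chinmoST and 631, 456 and 442 CPM in wild-type intermediate cyst cells. The F genes thus had separate ranges in these types, although Vha14-1 stayed detectable in every germline type. Its highest level was in early cyst cells, at 1204 ± 184 CPM, above terminal epithelial cells, the next highest type, without overlap. Vha26, the peripheral stalk subunit E, likewise had its highest level there, at 980.0 ± 118 CPM, again without overlap with terminal epithelial cells.

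**Figure D2:**
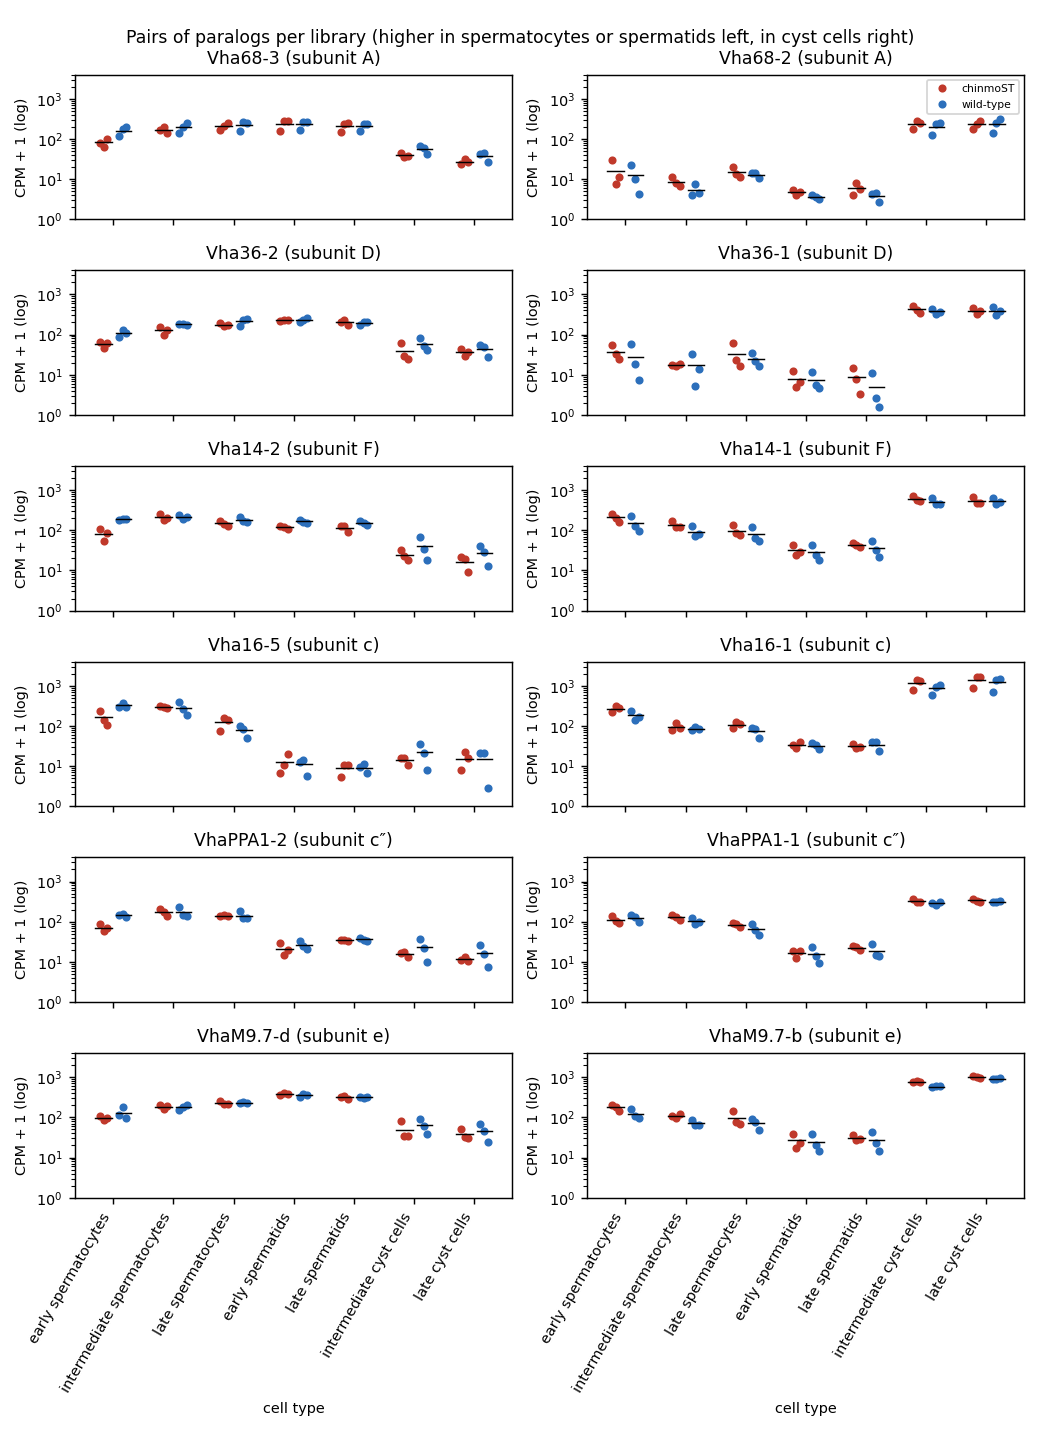
CPM + 1 (log axis) of 6 pairs of paralogs in the chinmoST libraries (red) and the wild-type libraries (blue) for 5 germline types and 2 cyst types, each point 1 library and each bar the mean of a genotype. Vha68-3, Vha36-2, Vha14-2 and VhaM9.7-d lie above their partner in early spermatids and below it in intermediate cyst cells in all 6 libraries, while Vha16-5 and VhaPPA1-2 stand highest in spermatocytes.

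The proteolipid genes changed in steps along the germline. In GSCs/spermatogonia Vha16-1 gave 97.6 ± 2.47% of subunit c UMIs (n = 4 libraries with at least 20 of them). In early spermatocytes Vha16-3 led on average, with 31.3 ± 7.51% of the UMIs, beside Vha16-1 with 28.1 ± 12.4% and Vha16-5 with 27.9 ± 9.33%, and these 3 did not differ beyond their spread. Vha16-5 led in intermediate spermatocytes with 35.8 ± 3.92%. In late spermatocytes Vha16-2 had 28.7 ± 9.15% and Vha16-5 23.5 ± 4.92%, which overlapped, and Vha16-2 led in 4 of 6 libraries. In early spermatids Vha16-2 led with 51.2 ± 5.89%. Vha16-5 measured 317, 295 and 284 CPM in chinmoST and 396, 271 and 192 CPM in wild-type intermediate spermatocytes, but 5.62, 9.72 and 19.2 CPM in chinmoST and 12.01, 13.6 and 4.63 CPM in wild-type early spermatids. Vha16-3 and Vha16-4 had the same shape, in that Vha16-3 averaged 224 ± 78.2 CPM in intermediate spermatocytes and 10.3 ± 4.72 CPM in early spermatids, and Vha16-4 69.2 ± 27.7 CPM and 3.75 ± 1.04 CPM. Vha16-3 and Vha16-2 are neighbours on 3L, 986 bases apart on the plus strand, with Vha16-3 at 11473291 to 11473972 and Vha16-2 at 11474958 to 11475552.

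Vha16-2 measured 50.1, 50.9 and 58.4 CPM in chinmoST and 66.3, 68.2 and 55.6 CPM in wild-type early spermatids, against 9.99, 11.7 and 15.8 CPM in chinmoST and 28.1, 21.0 and 10.6 CPM in wild-type intermediate cyst cells. Vha16-1 measured 32.3, 27.2 and 38.1 CPM in chinmoST and 37.3, 32.3 and 25.2 CPM in wild-type early spermatids, against 801, 1377 and 1329 CPM in chinmoST and 587, 934 and 1069 CPM in wild-type intermediate cyst cells. Vha16-2 was the leading c gene of spermatids at a level far under that of Vha16-1 in cyst cells.

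The second ring protein, c″, also had a gene that led in spermatids and another that led in cyst cells. VhaPPA1-2 measured 28.1, 14.2 and 19.2 CPM in chinmoST and 32.6, 24.2 and 19.8 CPM in wild-type early spermatids, 61.0 ± 6.70% of the subunit's UMIs, and was highest in intermediate spermatocytes at 171 ± 38.7 CPM. VhaPPA1-1 measured 17.6, 11.3 and 17.5 CPM in chinmoST and 22.1, 12.7 and 8.12 CPM in wild-type early spermatids, against 360.0, 309.7 and 305 CPM in chinmoST and 295, 257 and 304 CPM in wild-type intermediate cyst cells.

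Among the other membrane genes, VhaM9.7-d (e) had the highest level of any paralog that was higher in germline. It measured 363, 395 and 372 CPM in chinmoST and 321, 385 and 354 CPM in wild-type early spermatids, against 78.0, 33.7 and 32.6 CPM in chinmoST and 92.1, 61.1 and 38.4 CPM in wild-type intermediate cyst cells. VhaM9.7-b (e) measured 38.6, 16.1 and 22.6 CPM in chinmoST and 37.4, 19.2 and 13.3 CPM in wild-type early spermatids, against 754, 790.2 and 738 CPM in chinmoST and 556, 593 and 604 CPM in wild-type intermediate cyst cells. It peaked in terminal epithelial cells, which hold the heads of maturing spermatid bundles, at 1578 ± 81.8 CPM, above late cyst cells (963 ± 74.7 CPM) without overlap. VhaM9.7-c averaged 60.5 ± 61.0 CPM in GSCs/spermatogonia, 68.8 ± 19.8 CPM in early spermatocytes and 1.60 ± 1.36 CPM in early spermatids, and VhaM9.7-a had its highest mean, 30.002 ± 5.32 CPM, in intermediate spermatocytes. The gene model of VhaM9.7-c overlaps Teh2 on the same strand, and the effect of this on its counts was not tested.

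Subunit d was the only multi-gene subunit led by the same gene in early spermatids and intermediate cyst cells. VhaAC39-1, which is X-linked, measured 4.44, 3.30 and 6.20 CPM in chinmoST and 4.52, 3.16 and 0.944 CPM in wild-type early spermatids, against 158, 162 and 162 CPM in chinmoST and 119.5, 106 and 120.2 CPM in wild-type intermediate cyst cells. VhaAC39-2, on 3R at 23158017 to 23159316 on the minus strand, appeared mainly in early spermatocytes (68.9 ± 34.1 CPM) and intermediate spermatocytes (60.04 ± 13.5 CPM) and was at 2.34 ± 0.854 CPM in early spermatids. In intermediate spermatocytes VhaAC39-1 held 58.1, 50.8 and 52.8% of the UMIs of subunit d in chinmoST and 41.8, 42.2 and 35.3% in wild-type libraries. Every chinmoST share thus lay above every wild-type share, and VhaAC39-2 had the larger share in the wild-type libraries. In chinmoST VhaAC39-2 held 41.9, 49.2 and 47.2%, close to VhaAC39-1. The subunit had as few as 31 UMIs in a library, so no leading gene is named for chinmoST.

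**Figure D3:**
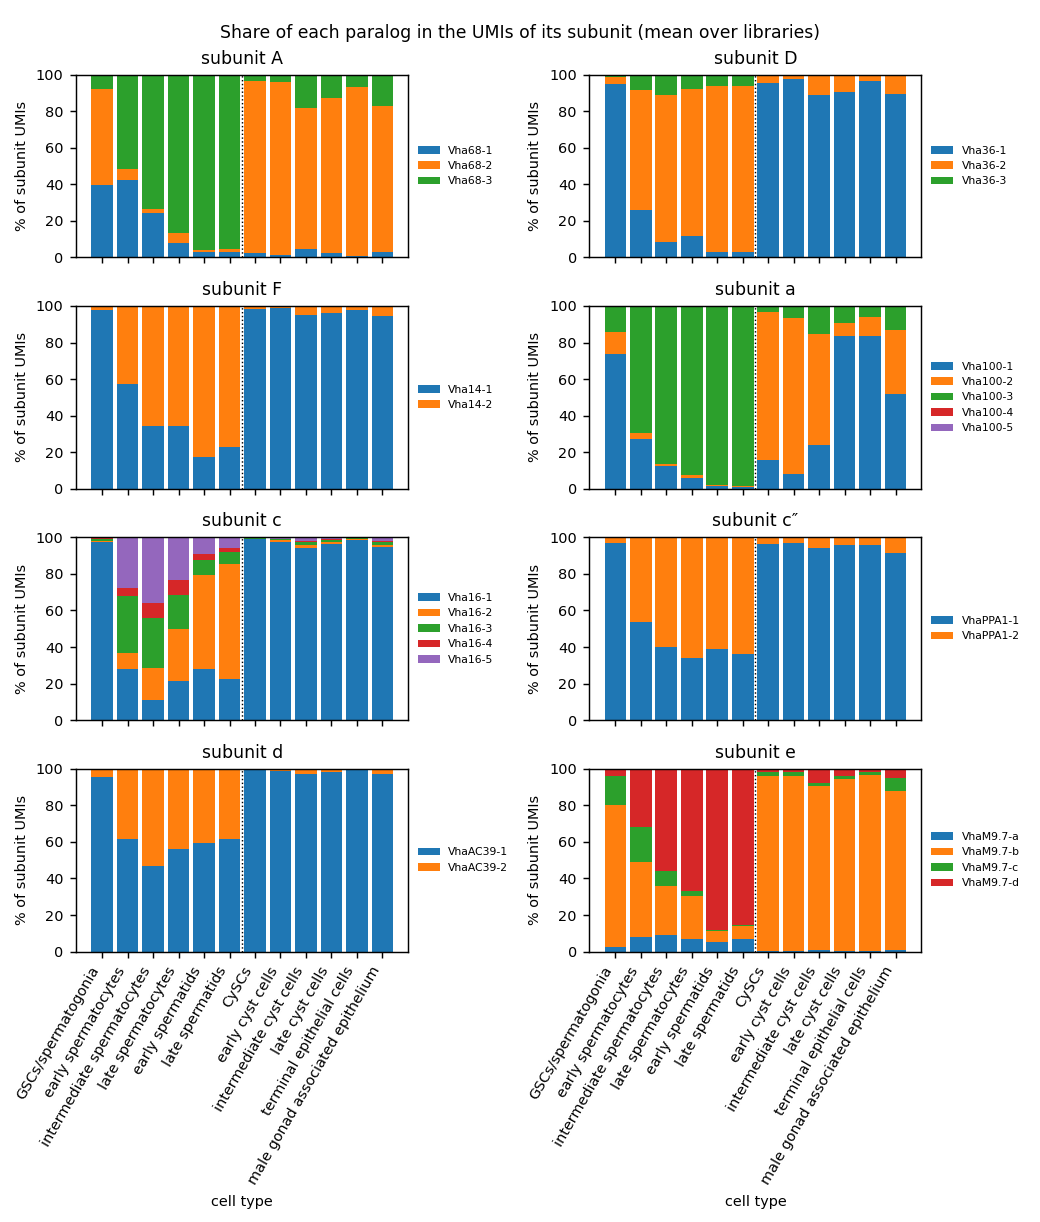
Share of each paralog in the UMIs of its subunit, in percent, as the mean over libraries with at least 20 UMIs of the subunit, for 6 germline types (left of the dotted line) and 6 somatic types (right of it). The gene that leads in intermediate cyst cells fills most of each somatic bar, except for subunit a. Its mean share over both genotypes is under 50% in 5 subunits in early spermatocytes and in all 8 in intermediate spermatocytes.

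Counted by type, the gene that led a subunit in intermediate cyst cells held under 50% of that subunit's UMIs, on average over libraries, in 1 subunit (a) in GSCs/spermatogonia, in 5 (a, c, D, A and e) in early spermatocytes, in 8 in intermediate spermatocytes and in 7 in late spermatocytes, early spermatids and late spermatids. It did so in no subunit in CySCs and early cyst cells, and in subunit a alone in late cyst cells, terminal epithelial cells and male gonad associated epithelium. These means run over both genotypes, which differed in early spermatocytes. There Vha14-1 held 71.9 ± 7.13% of subunit F in chinmoST and 43.2 ± 11.8% in wild-type libraries (SD, n = 3 each). VhaAC39-1 led subunit d there in 4 of 6 libraries and VhaPPA1-1 led c″ in 3 of 6. RNA free in the suspension can give UMIs in cells that do not express a gene, so the levels of each class were also read in the other lineage. Over 17 germline markers the level in the cyst lineage was 10.8 to 47.7% of that in germline (median 19.3%), and over the 8 V-ATPase genes higher in germline it was 17.4 to 24.1% (median 20.3%). These ranges overlap, and the part of free RNA in the cyst cell levels of the 8 genes was not tested. In the reverse direction 7 cyst markers had 0.826 to 70.6% of their cyst level in germline (median 2.93%), and the 11 V-ATPase genes higher in the cyst lineage had 2.4 to 33.3% (median 11.1%).

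Subunit a, which in other systems decides the membrane the pump sits in, also changed its main gene within the soma. Vha100-2 (3R, 18390323 to 18399169, minus strand) measured 102, 148 and 196 CPM in chinmoST and 92.4, 188 and 157 CPM in wild-type early cyst cells, and 7.26, 17.1 and 12.2 CPM in chinmoST and 4.41, 8.35 and 13.5 CPM in wild-type late cyst cells. Vha100-1 (3R, 29131193 to 29137980, plus strand) measured 10.6, 7.06 and 22.3 CPM in chinmoST and 11.2, 5.54 and 27.7 CPM in wild-type early cyst cells, and 82.2, 141 and 146 CPM in chinmoST and 69.9, 138 and 138 CPM in wild-type late cyst cells. For both genes the early and late cyst cell values did not overlap, and they ran in opposite directions. The share of Vha100-2 in the UMIs of subunit a was 80.6 ± 8.19% in CySCs (n = 5), 85.3 ± 5.12% in early cyst cells and 60.5 ± 6.997% in intermediate cyst cells, and that of Vha100-1 was 83.4 ± 2.55% in late cyst cells and 83.6 ± 12.2% in terminal epithelial cells (n = 5).

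**Figure D4:**
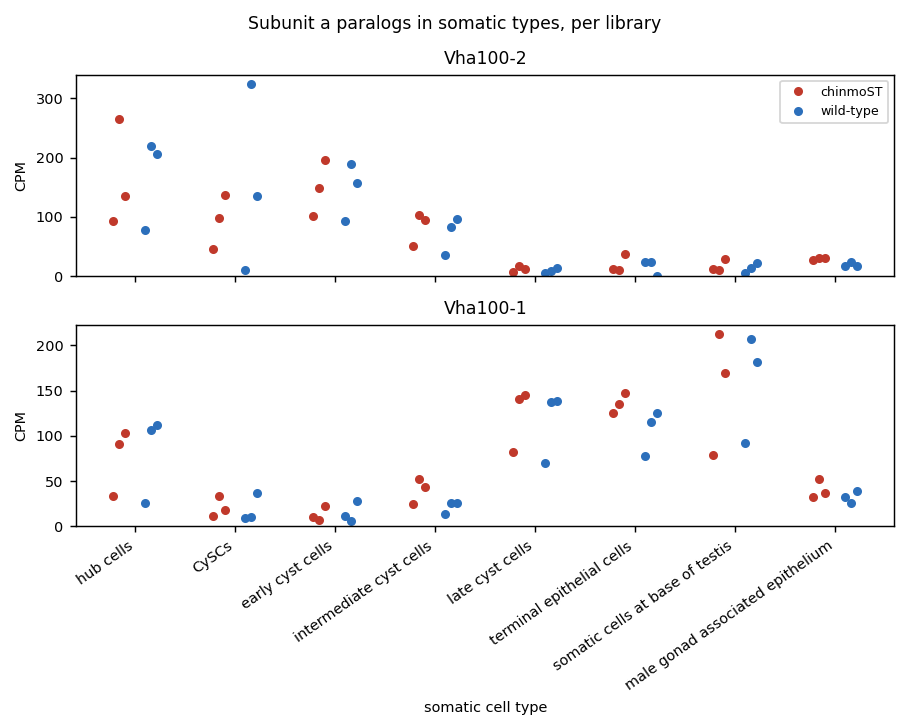
CPM of Vha100-2 and Vha100-1 in each chinmoST library (red) and each wild-type library (blue) for 8 somatic types, each point 1 library. Vha100-2 is high in CySCs, early and intermediate cyst cells and at 4.41 to 17.1 CPM in late cyst cells, where Vha100-1 lies between 69.9 and 146 CPM.

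From early spermatocytes on the leading a gene was Vha100-3 (2R, 18908961 to 18911895, minus strand). In GSCs/spermatogonia Vha100-1 led instead, with 73.8 ± 14.5% of subunit a UMIs, beside 14.1 ± 7.09% for Vha100-3 (n = 4). Vha100-3 measured 62.7, 89.2 and 82.9 CPM in chinmoST and 73.8, 87.8 and 80.3 CPM in wild-type early spermatids, against 9.99, 13.8 and 14.4 CPM in chinmoST and 23.7, 21.4 and 17.0 CPM in wild-type intermediate cyst cells. It held 97.2 ± 0.446% of subunit a UMIs in early spermatids and had its highest mean, 132 ± 32.6 CPM, in late spermatids. Its gene model overlaps sano on the other strand, and that of Vha100-1 overlaps Alg13. Vha100-4, next to Vha100-2 at a distance of 518 bases, and Vha100-5 were close to absent, with 19 and 68 UMIs in all kept cells.

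Summed over paralogs, the subunits differed in how much lower they were in spermatids. The total of subunit d in early spermatids was 4.32% of that in intermediate cyst cells (range over libraries 1.86 to 6.54%), c was at 11.6%, c″ at 11.7%, C at 26.7%, F at 29.9% and Ac45 at 26.1%. The totals of H, E, e, G and D lay between 49.8 and 57.3%. Subunit a was at 69.7% (54.1 to 103%), A at 88.0% (73.4 to 98.1%) and B, encoded by Vha55 alone, at 93.9% (82.55 to 113%). B was lower in early spermatids in 4 of 6 libraries only. Summed by sector, V1 was at 1707 ± 94.5 CPM in early spermatids against 3216 ± 213 CPM in intermediate cyst cells, and V0 at 654 ± 38.0 CPM against 2410.1 ± 391.99 CPM. The catalytic subunit A and its partner B thus stood nearest to their cyst cell level and the ring and d farthest from it.

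Libraries of 3–5 d stood apart from the others of their genotype in several somatic levels. In all 6 somatic types Vha16-1 was lowest in the 3–5 d library of each genotype, for example at 867, 1646 and 1645 CPM in chinmoST and 711, 1411 and 1514 CPM in wild-type late cyst cells. Vha36-1 went the other way, with its highest level of each genotype in the 3–5 d library in 5 of 6 somatic types, for example at 714, 593 and 704 CPM in chinmoST and 818, 509 and 642 CPM in wild-type early cyst cells. Since age and library cannot be told apart, these differences were given no test.

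Of 20 partners of the pump and of the lysosome, 18 had at least 10 CPM in a lineage, and 0 were higher in germline and 8 higher in the cyst lineage, beside 32.9% and 15.7% of all genes. The 8 were ATP6AP2, an accessory subunit, Rbcn-3A, which acts in the assembly of V1 with V0, the TLDc protein gene mtd, the lysosomal membrane proteins Lamp1 and Npc1a, and the cathepsins Cp1, cathD and CtsB1. ATP6AP2 averaged 54.5 ± 33.0 CPM in germline against 501 ± 95.7 CPM in the cyst lineage, and Lamp1 161 ± 15.0 CPM in germline against 820.0 ± 161 CPM in the cyst lineage. Mitf, whose product is a transcription factor of V-ATPase genes in the fly, averaged 23.6 ± 5.34 CPM in germline against 13.6 ± 4.31 CPM in the cyst lineage and was in neither class.

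The effect of chinmoST was tested in each type on UMIs summed per library, with edgeR's quasi-likelihood test and adjustment over all genes tested. In early spermatocytes, the germ cells that have entered the meiotic programme, 2 of 27 V-ATPase genes tested fell in chinmoST and 0 rose, where 0.784% of the 6501 genes tested fell and 3.25% rose. Both were spermatocyte paralogs. Vha14-2 (F) measured 104, 53.6 and 86.6 CPM in chinmoST and 181, 192 and 195 CPM in wild-type early spermatocytes, and VhaAC39-2 (d) measured 53.3, 30.8 and 32.0 CPM in chinmoST and 94.1, 104 and 99.2 CPM in wild-type libraries. Every chinmoST value lay under every wild-type value for both genes. The log2 fold change of Vha14-2 was −1.07 (SE 0.21, edgeR adjusted p = 0.0435) and that of VhaAC39-2 −1.24 (SE 0.18, edgeR adjusted p = 0.0466). DESeq2 made the same number of calls, also 2 lower and 0 higher. The 5 genes that were too low to be tested were Vha100-2, Vha100-4, Vha100-5, Vha68-2 and Vha36-3.

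These calls depended on single libraries. Without the wild-type library of 6–8 or 9–11 d, or the chinmoST library of 6–8 or 9–11 d, no gene of any kind was called and the adjusted p of Vha14-2 lay between 0.130 and 0.245 and that of VhaAC39-2 between 0.145 and 0.257, with both log2 fold changes still negative. In cells with at least 2105 UMIs, the highest of the libraries' own minimums, the edgeR adjusted p was 0.0638 for Vha14-2 and 0.0508 for VhaAC39-2. The median log2 fold change of all genes was 0.06 with TMM scaling and −0.12 with scaling to library size alone, under which the 2 genes were also called, while 2 V-ATPase genes changed sign and the calls over all genes were 174 higher and 86 lower, beside 211 and 51 with TMM.

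**Figure D5:**
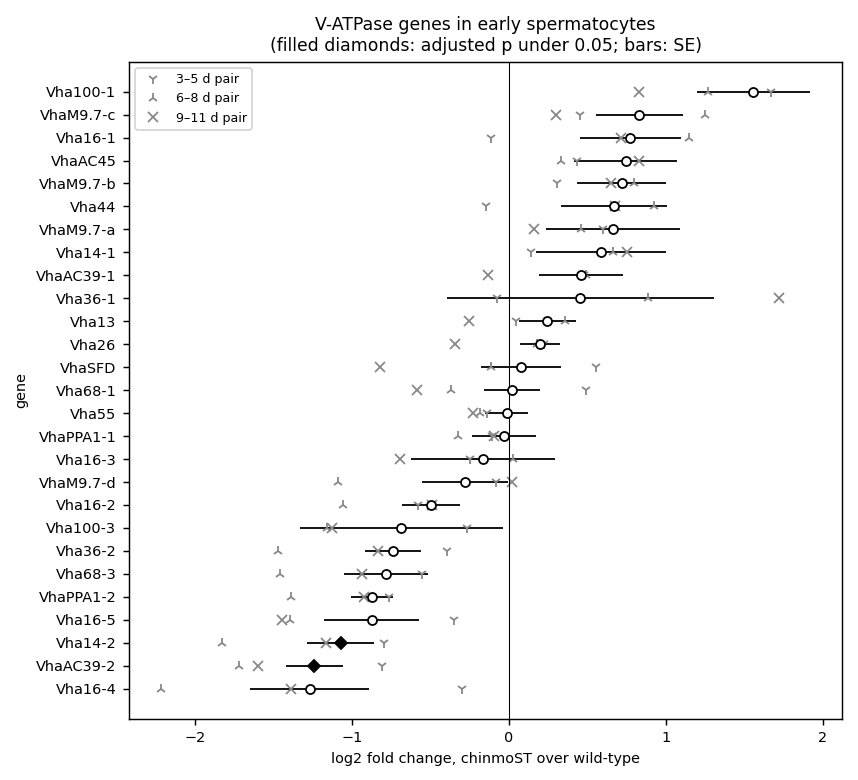
Log2 fold change, chinmoST over wild-type, of the 27 V-ATPase genes tested in early spermatocytes (rows, ordered by it), with SE bars and, in grey, the ratio of CPM + 1 in each pair of libraries of 1 age. The filled diamonds, Vha14-2 at −1.07 and VhaAC39-2 at −1.24, had adjusted p under 0.05, and the paralogs of spermatocytes and spermatids lie mostly left of 0.

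Including the 2 calls, 8 of the 27 genes lay under the wild-type range in all 3 chinmoST libraries, where 22.4% of all genes tested did, and 2 lay above it, where 12.2% did. These counts lie near the shares over all genes. The 8 were Vha14-2, VhaAC39-2, Vha16-5, Vha16-4, Vha68-3, Vha36-2, VhaPPA1-2 and Vha16-2, each with its highest mean in a spermatocyte or spermatid type. Whether other genes of these stages fell as often was not tested. Vha16-5 measured 236, 144 and 108 CPM in chinmoST and 300.4, 379.8 and 294 CPM in wild-type libraries (log2 fold change −0.87, SE 0.30, edgeR adjusted p = 0.0785), and Vha68-3 78.6, 62.5 and 100.0 CPM in chinmoST and 116, 174 and 192 CPM in wild-type libraries (−0.78, SE 0.27, edgeR adjusted p = 0.103). The 2 above were VhaM9.7-c and Vha100-1. Vha100-1, which led subunit a in late cyst cells and also in GSCs/spermatogonia, was low here. It measured 25.3, 27.6 and 34.9 CPM in chinmoST and 7.24, 10.9 and 19.2 CPM in wild-type libraries (log2 fold change 1.56, SE 0.36, edgeR adjusted p = 0.0677). By lineage class, 6 of 7 tested genes of the germline class had a negative log2 fold change (median −0.69) and 1 of 9 of the cyst class had one (median 0.67), and the median was 0.02 over all 27 genes and 0.06 over all genes tested.

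In early spermatocytes the share of the germline paralogs in their subunit was lower in every chinmoST library than in every wild-type library for F, e and a. It overlapped for A, D and c. How often the shares of other paralog families separate in this way was not computed. By level, 22.4% of all genes tested lay under the wild-type range in this type. Vha14-2 made up 28.9, 20.6 and 34.7% of subunit F UMIs in chinmoST and 43.9, 59.6 and 67.0% in wild-type early spermatocytes, a mean of 28.1 ± 7.13% against 56.8 ± 11.8% (SD, n = 3 each). VhaM9.7-a and VhaM9.7-d together made up 32.9 ± 2.4% of subunit e in chinmoST and 46.5 ± 11.8% in wild-type libraries (SD, n = 3 each), and Vha100-3 54.8 ± 1.5% and 83.5 ± 4.21% of subunit a (SD, n = 2 each). Among the overlapping subunits, Vha68-3 made up 35.4, 43.3 and 53.5% of subunit A in chinmoST and 52.9, 61.9 and 61.9% in wild-type libraries.

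Stage and cell markers moved with the genotype in the same cells. The summed level of the 6 GSC and spermatogonia markers in early spermatocytes was 121 to 216 CPM in chinmoST and 20.2 to 67.2 CPM in wild-type libraries, with all 6 higher in chinmoST on average. The 7 intermediate spermatocyte markers summed to 950 to 1597 CPM in chinmoST and 1744 to 2032 CPM in wild-type libraries, the 4 late spermatocyte markers to 533 to 738 CPM against 1107 to 1429 CPM, and the 2 early spermatid markers to 554 to 901 CPM against 1169 to 1238 CPM. The 3 intermediate cyst cell markers summed to 199 to 399 CPM in chinmoST and 62.0 to 119 CPM in wild-type libraries, with 1 of 3 higher on average, while the 5 early spermatocyte markers overlapped (863 to 1501 CPM and 701 to 1424 CPM). Median UMIs per early spermatocyte were 1673, 1390 and 1476 in chinmoST and 3517.5, 3307.5 and 2581 in wild-type libraries. The part of these differences in the V-ATPase results was not tested.

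In the cyst lineage no V-ATPase gene was called by edgeR. In CySCs 0 of 14 were called (0 at an unadjusted p under 0.05, 0 by DESeq2), where 0 of 3428 genes were (0.0%), and 13 of 14 had a negative log2 fold change, with a median of −0.50 beside 0.04 over all genes tested. The median was −0.25 without the wild-type library of 6–8 d, which held 4 CySCs, and −0.74 without that of 3–5 d. Of the 14, 8 lay under the wild-type range in all chinmoST libraries, where 12.9% of all genes did. Vha68-2, with the lowest adjusted p, measured 106, 150.1 and 152 CPM in chinmoST and 219, 574 and 279.7 CPM in wild-type CySCs (log2 fold change −1.07, SE 0.42, edgeR adjusted p = 0.562). There were 26, 33 and 31 CySCs in the chinmoST libraries and 9, 4 and 7 in the wild-type ones. The 6 GSC and spermatogonia markers summed to 67.0 to 150.1 CPM in chinmoST and 0 to 20.9 CPM in wild-type CySCs, with 5 of 6 higher in chinmoST on average and 1 at 0 in every library, and their part in these levels was not tested. With library-size scaling the median over all genes was −0.14 in this type, and that over the V-ATPase genes −0.68.

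In intermediate cyst cells 0 of 30 were called (3 at an unadjusted p under 0.05, 0 by DESeq2), where 0.0762% of 9184 genes were called. All 11 genes of the cyst class had a positive log2 fold change (median 0.26) and 7 of 8 of the germline class a negative one (median −0.56). The germline class was also negative in 7 of 7 genes in late cyst cells and 6 of 6 in male gonad associated epithelium. The cyst class was negative in 3 of 11 and 0 of 11 genes there, but in 9 of 10 in CySCs. This split over all genes of each lineage was not computed, here or in early spermatocytes. In intermediate cyst cells the genes that lay above the wild-type range in all chinmoST libraries were 6 (Vha26, Vha44, VhaAC39-1, VhaAC45, VhaM9.7-b and VhaPPA1-1), where 10.5% of all genes did, and 1 lay below it (Vha100-3), where 5.02% did. The summed CPM of the 32 genes was 6275 ± 349 in chinmoST and 5330 ± 197 in wild-type libraries, with no overlap (SD, n = 3 each). The 2 pigment cell markers summed to 175.7 to 229 CPM in chinmoST and 396.7 to 487.7 CPM in wild-type intermediate cyst cells, with 1 of 2 higher in chinmoST on average. The 8 late spermatid markers summed to 180 to 369 CPM in chinmoST and 208 to 530 CPM in wild-type libraries, with 0 higher in chinmoST on average. Of the early spermatid markers 0 of 2 were higher, of the late spermatocyte markers 0 of 4, and of the GSC and spermatogonia markers 6 of 6, all with overlapping sums. The part of these markers in the V-ATPase differences of this type was not tested. The libraries of an age deviated together in this type, and in a fit with age as a block 5 of 30 V-ATPase genes were called. Over all genes, 1804 of 9184 were called in that fit (734 higher, 1070 lower), a share near that of the V-ATPase genes. Vha100-1 (log2 fold change 0.88, adjusted p = 0.0110), Vha16-1 (0.44, 0.0349) and VhaAC39-1 (0.48, 0.0311) rose, and Vha36-2 (−0.66, 0.0290) and Vha100-3 (−0.72, 0.0497) fell in edgeR. Vha100-1 measured 24.6, 52.0 and 42.9 CPM in chinmoST and 13.5, 25.2 and 26.1 CPM in wild-type libraries, so it was higher in chinmoST at each age.

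In the other types no V-ATPase gene was called either. The counts by edgeR, each with the number at an unadjusted p under 0.05, were 0 of 14 (0) in early cyst cells, 0 of 29 (0) in late cyst cells, 0 of 15 (0) in terminal epithelial cells, 0 of 24 (1) in male gonad associated epithelium, 0 of 17 (1) in GSCs/spermatogonia, 0 of 27 (1) in intermediate spermatocytes, 0 of 29 (2) in late spermatocytes, 0 of 29 (3) in early spermatids and 0 of 23 (1) in late spermatids. DESeq2 also called 0 in each. Over all genes tested, edgeR called 0.0% in the first 4 of these types and in late spermatocytes, 0.34% in GSCs/spermatogonia, 0.466% in intermediate spermatocytes, 1.63% in early spermatids and 0.68% in late spermatids. In GSCs/spermatogonia the median log2 fold change of all genes was 0.42 with TMM and −0.14 with library-size scaling, and 6 of the 17 V-ATPase genes changed sign between them, so no direction is given there.

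With age as a block, 1 V-ATPase gene each was called in 2 of these types, where libraries of an age deviated together. That was 1 of 29 in early spermatids, where 397 of 9276 genes were called. In intermediate spermatocytes it was 1 of 27, where 396 of 6006 genes were called. Neither count was above the share over all genes. Vha14-2 fell in early spermatids (log2 fold change −0.56, edgeR adjusted p = 0.0304, and 0.169 without the block), at the levels given above, and Vha36-2 fell in intermediate spermatocytes (−0.67, edgeR adjusted p = 0.0469, and 0.216 without the block), with 152, 98.0 and 129.98 CPM in chinmoST and 178, 182 and 175 CPM in wild-type libraries. Every chinmoST value lay under every wild-type value for both, while 3 V-ATPase genes lay above the wild-type range in each of these 2 types. The share of all genes outside that range is not given for them.

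A test of the difference between the genotype effects in early spermatocytes and in intermediate cyst cells called 0 of 30 V-ATPase genes (0 at an unadjusted p under 0.05, 0 by DESeq2), where 0.556% of 10070 genes were called. The lowest p was that of VhaAC39-2, whose effect was more negative in early spermatocytes by 1.09 on the log2 scale (edgeR adjusted p = 0.527). The effects in these cell types were not shown to differ.

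Among the partners, Cp1, a cathepsin L, was the only edgeR call in any of the 12 types without a block, with a rise in chinmoST intermediate cyst cells (log2 fold change 2.30, SE 0.16, edgeR adjusted p = 0.0301). The call was lost, at adjusted p of 0.175 to 0.340, without either of the 6–8 d libraries or either of the 9–11 d libraries, and it was lost, at 0.0614, in cells with at least 2105 UMIs. With age as a block, 4 of 19 partners were called there, all higher, where 1804 of 9184 genes were called, 734 of them higher. The 4 were Cp1 (log2 fold change 2.29, edgeR adjusted p = 5.03e-05), the late endosome GTPase gene Rab7 (0.98, 0.0013), RagA-B (0.87, 0.0110) and car (0.74, 0.0381). Of the other types in which libraries of an age deviated together, Cp1 alone among the partners rose with the block in intermediate and late spermatocytes. That was 1 of 11 partners beside 396 of 6006 genes called, and 1 of 14 beside 315 of 7662. In the rest of these types no partner was called.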

How the data were processed

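Single-cell RNA was profiled in 6 testis libraries (3 chinmoST, 3 wild-type). The authors aligned the reads to dm6 and made the deposited UMI counts with Cell Ranger 4.0.0, and filtered, integrated, clustered and named the cells with Seurat (3.2.2 or 3.0 per the labels). The deposited counts are whole UMIs, not normalized, and the total of each of the 26549 cells named in the deposited cell table equalled that in the table. The integrated expression table was not used here. The sources used here do not say how doublets were treated, and none were removed for these values. Counts were summed per library and cell type.

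Genotypes were compared with edgeR 4.0.16 in R 4.3.3 (TMM, filterByExpr, quasi-likelihood test) in each of 12 types over libraries with at least 3 cells of the type, calling an adjusted p under 0.05 (Benjamini-Hochberg). A fold change is chinmoST over wild-type. Its SE is that of the difference in log2 CPM between libraries with a prior count of 2, another scale than the fitted fold change. DESeq2 1.42.0, no low-count filter, cells with a common UMI minimum, age as a block and leaving out each library were alternatives, and library-size scaling was added after seeing the data. The script was tested on simulated data. Python 3.11, numpy 2.4.6, pandas 2.3.3, scipy 1.17.1 and matplotlib 3.10.9 made the other values. Lineage ratios used a prior of 1 CPM, and shares libraries with at least 20 UMIs of a subunit.

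The members and gene lists were chosen with earlier results of these data known. Per-library values are given for the paralog of each subunit that leads in germline and in cyst types, for every called gene and for the leading gene of each type, with further members as examples. Libraries of the same age were taken as paired where the deviations of all 3 pairs from their genotype means correlated above 0.1. They did in 9 of 12 types, but not in early cyst cells, GSCs/spermatogonia and early spermatocytes (lowest r 0.0802, 0.00655 and 0.0195). The identifiers of 31 of 32 members carry the same symbol in the current annotation, and Vha44 was matched by symbol.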

Additional observations from a re-analysis of the deposited data

How the results depend on the processing

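Of 162 alternatives of counts of called members, 148 stayed within 1.5 times the main count, and of 193 alternatives of single values 168 kept direction and side of the threshold, 15 lost the call, 10 moved by more than the spread and 0 reversed. In early spermatocytes the main count of 2 became 5 without the low-count filter (2 higher, 3 lower), where 1211 of 13327 genes were called. It became 14 of 27 with a replicate block by age (7 higher, 7 lower), where 1784 of 6501 genes were called and the libraries share only an age. The count was 0 with the common UMI minimum, where 522 of 6399 genes were called, and 0 to 8 when 1 library was left out. It was 6 of 27 without the wild-type library of 3–5 d, where 967 of 7124 genes were called. Without the chinmoST library of 3–5 d it was 8 of 27, where 1427 of 7104 genes were called. It was 0 without any of the other 4, where no gene of any kind was called. With the replicate block the count became 5 in intermediate cyst cells, 1 in intermediate spermatocytes and 1 in early spermatids, and no other block changed a member's call. With the same block, 4 of 13 partners were called in early spermatocytes and 1 of 8 in early cyst cells, where libraries of an age did not deviate together. Over all genes, 1784 of 6501 and 152 of 2464 were called in these types. Of the 19 lineage calls, 5 were made at a fold of 4 and 16 with TMM-scaled levels. Averaging cells with equal weight moved 9 paralog shares, for example that of Vha16-2 in subunit c of early spermatids to 35.2%. The causes were not tested. Library-size scaling moved the median log2 fold change of all genes by over 0.1 in CySCs, GSCs/spermatogonia and early, intermediate and late spermatocytes. Depth limits the types with few wild-type cells most, where 1 UMI was worth up to 46.5 CPM (GSCs/spermatogonia). The SDs and SEs given are those between libraries.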
